A study of Mus musculus with 6 samples.

Results

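The insulin-like growth factor (IGF) axis of the mouse was followed here as 10 genes: the ligands Igf1 and Igf2, the receptors Igf1r and Igf2r, the binding proteins Igfbp2, Igfbp3, Igfbp4, Igfbp5 and Igfbp6, and the adaptor Irs1. Its members were the probes whose RefSeq accession belonged to one of these genes, without regard to any measured value. All 10 genes were found, with 15 probes of the 39429 on the array, and they stand among 32451 gene entries in all. Igf1 had 4 probes, Igfbp2 and Irs1 had 2 each, and each of the others had 1, so the probes of one gene share a target and are not replicates.

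RNA came from C2C12, an established mouse myoblast line that divides in serum-rich medium and fuses into myotubes when serum is withdrawn. One group (siRNA-MEG3, 3 arrays) received an siRNA to Meg3, an imprinted lncRNA, and the other a negative control siRNA (siRNA-NC, 3 arrays). Both groups were kept in medium with 10% fetal bovine serum, and transfection was done with lip3000 at 70 to 80% confluence with siRNA given in the labels as "20 um"; the interval before RNA extraction and the number of siRNA sequences are not given in the sources used here. The sources name no separate cultures beyond the word biological. siRNA-MEG3 arrays 1 and 3 behaved as a repeat scan of the same hybridised array (correlation of the residuals of single spots 0.978). The difference between siRNA-NC arrays 1 and 3 was within the sampling noise of their spots (variance ratio 1.06, against 183.6 for siRNA-NC arrays 1 and 2). The arrays of such a pair were averaged to 1 sample, so that each group had 2 samples, and the p-values measure only the spread between these samples, which may be technical. No scan held arrays of both groups, so scan and group cannot be told apart.

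IGF1 and IGF2 are secreted ligands that signal through the tyrosine kinase receptor encoded by Igf1r. The receptor encoded by Igf2r, which also binds mannose 6-phosphate, takes IGF2 up for degradation and does not signal in this way. Binding proteins hold the ligands in the medium and can limit or prolong their action. IRS1 links the activated receptor to the PI3K-AKT-mTOR arm, and other adaptors link it to the RAS-MAPK arm. In muscle cells in culture, IGFs are known to promote both division and differentiation, and Igf2 is known to be induced as C2C12 cells differentiate.

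Promoter windows are shown for the members with the smallest p-values, Igfbp4 and Igf2. They come from RefSeq annotation of GRCm38.p6 and span 300 bases around a transcript start, mostly before it, on the strand of the gene. The Igfbp4 window is chr11:99040994-99041293 (plus strand), and the windows of Igf2, the ones among its 4 that hold an E-box, are chr7:142658755-142659054 and chr7:142666767-142667066 (minus strand). Capitals mark the E-box CANNTG, which reads the same on both strands, and the TATA box TATAAA, searched on both strands; the motifs cannot overlap each other.
Igfbp4 promoter: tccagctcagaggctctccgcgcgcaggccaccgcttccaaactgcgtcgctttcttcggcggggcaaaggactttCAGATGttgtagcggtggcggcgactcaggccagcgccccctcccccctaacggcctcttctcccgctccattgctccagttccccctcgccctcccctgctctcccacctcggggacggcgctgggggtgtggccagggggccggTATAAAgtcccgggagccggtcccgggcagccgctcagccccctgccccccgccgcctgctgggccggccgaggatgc
Igf2 promoter A: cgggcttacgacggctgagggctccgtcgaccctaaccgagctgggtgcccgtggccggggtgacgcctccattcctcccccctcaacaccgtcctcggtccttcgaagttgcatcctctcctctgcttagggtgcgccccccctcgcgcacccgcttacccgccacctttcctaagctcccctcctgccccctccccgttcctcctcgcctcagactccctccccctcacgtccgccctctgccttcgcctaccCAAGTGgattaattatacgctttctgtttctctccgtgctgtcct
Igf2 promoter B: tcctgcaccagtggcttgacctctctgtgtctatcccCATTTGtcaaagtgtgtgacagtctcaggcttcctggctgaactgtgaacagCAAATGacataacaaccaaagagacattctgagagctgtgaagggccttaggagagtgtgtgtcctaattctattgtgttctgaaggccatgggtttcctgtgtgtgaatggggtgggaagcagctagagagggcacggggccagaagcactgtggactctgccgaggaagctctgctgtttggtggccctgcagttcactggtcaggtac
An E-box, the sequence bound by the myogenic factors and by many other proteins, was found in 11 of 14 member windows and in 9 of the 10 genes, all but Igf1r. It stood in 72.3% of all 32851 windows of the same length. TATAAA was found in the windows of Igfbp4 and Igfbp6, 2 of 14, and in 13.6% of all windows. A match describes these letters only.

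No IGF axis gene passed the test. Signals are given as relative signal, the processed intensity of a probe divided by the 75th percentile of its array; they compare arrays for 1 probe and never 1 probe with another. In limma's fit over 22054 genes, with Benjamini-Hochberg adjustment and a threshold of 0.05, 0 members rose and 0 fell, while 1.37% of all genes were called (210 higher and 93 lower with siRNA-MEG3). At an unadjusted p under 0.05 the members numbered 2 of 10, Igf2 and Igfbp4, against 18.6% of all genes. Of the log2 fold changes, 4 were positive and 6 negative, with a median of -0.27, against -0.02 over all genes tested. The 3 arrays of the groups did not overlap, with siRNA-MEG3 higher, for Igf2 and Igf2r, which 25.3% of all genes also showed. They did not overlap, with siRNA-MEG3 lower, for Igf1r, Igfbp2, Igfbp4 and Igfbp6, which 21.9% of all genes also showed.

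**Figure D1:**
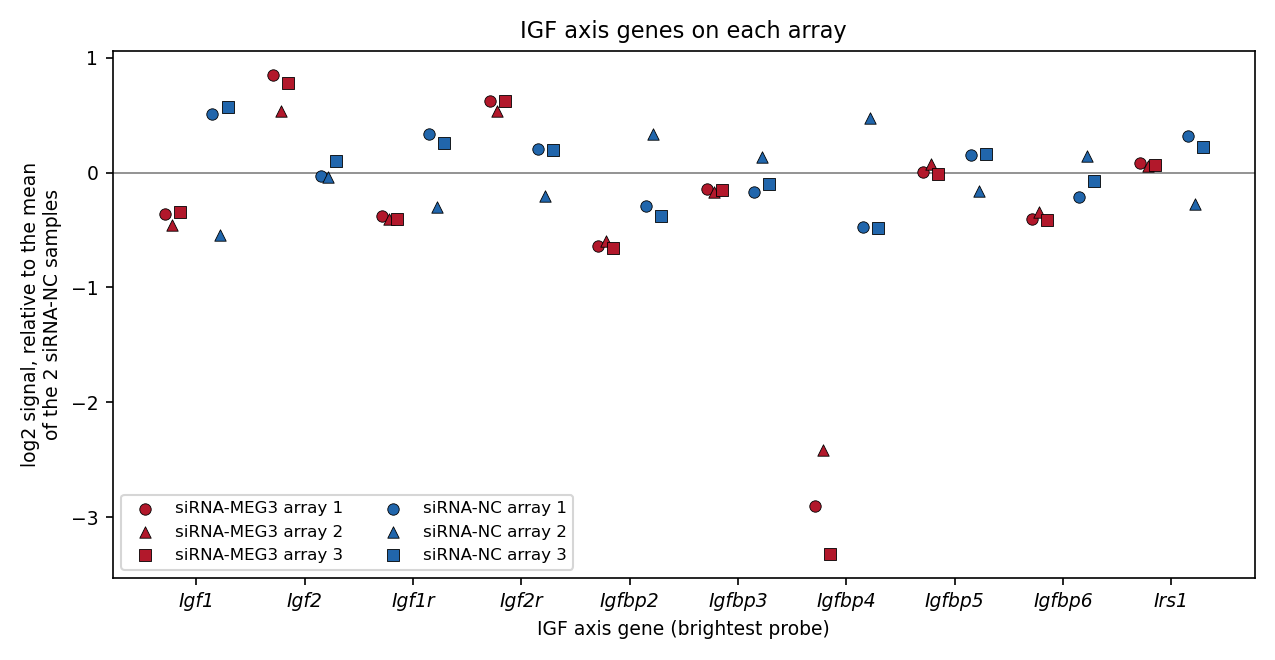
Log2 signal of the brightest probe of each IGF axis gene on every array (vertical axis, log2, relative to the mean of the 2 siRNA-NC samples), with siRNA-MEG3 in red left of siRNA-NC in blue and a symbol for each array number. Igfbp4 is the only member with siRNA-MEG3 arrays more than 1 log2 unit away from that mean, and siRNA-NC array 2 stands away from siRNA-NC arrays 1 and 3 for most members.

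Of the ligands, Igf1 did not differ beyond the spread. Its brightest probe had relative signals of 5.64, 5.28 and 5.72 on the siRNA-MEG3 arrays, against 10.3, 4.98 and 10.8 on the siRNA-NC arrays. siRNA-NC array 2 lay below every siRNA-MEG3 array and siRNA-NC arrays 1 and 3 lay above them, so the groups overlapped. The log2 fold change was -0.40 ± 0.42 (SE, n = 2 samples each; limma adjusted p = 0.678), with a 95% interval of -1.56 to 0.75. The gap between the siRNA-NC samples, 1.08 on the log2 scale, was larger than the difference between the groups, and without siRNA-NC array 2 the difference was -0.94.

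The next 2 Igf1 probes gave like differences. The second read 3.26, 3.58 and 3.26 with siRNA-MEG3, against 6.52, 3.18 and 6.96 with siRNA-NC. The third read 3.70, 2.41 and 3.63 with siRNA-MEG3, against 4.64, 3.14 and 4.62 with siRNA-NC. Both had overlapping groups, and their log2 fold changes were -0.44 and -0.36. The dimmest probe went the other way, at 0.193, 0.210 and 0.200 with siRNA-MEG3 against 0.183, 0.178 and 0.181 with siRNA-NC, a log2 fold change of 0.17 ± 0.20 (SE, n = 2 samples each; limma adjusted p = 0.709 over all probes). The groups did not overlap for this probe, siRNA-MEG3 being higher, but they did in the authors' deposited table. The probes of Igf1 thus disagreed in sign, and none of them passed. Among all 15 member probes 0 passed, against 1.22% of all probes tested.

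Igf2 was the member with the higher level under siRNA-MEG3 that came closest to the threshold. Its relative signal was 0.0514, 0.0413 and 0.0490 with siRNA-MEG3, against 0.0279, 0.0278 and 0.0305 with siRNA-NC. All siRNA-MEG3 arrays lay above all siRNA-NC arrays, and the probe was well above background on all 6. The log2 fold change was 0.68 ± 0.22 (SE, n = 2 samples each), a ratio of 1.60, with a 95% interval of 0.08 to 1.28. The unadjusted p was 0.0344 and limma's adjusted p was 0.227, so it did not pass. The processed intensities were low, 55.1 to 67.2 with siRNA-MEG3 and 36.0 to 63.3 with siRNA-NC, and overlapped before the arrays were scaled: siRNA-NC array 2, with the highest intensity for Igf2 in its group, also had the highest 75th percentile of all arrays.

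The receptors had differences of opposite sign. Igf1r, the signalling receptor, read 4.56, 4.47 and 4.47 with siRNA-MEG3, against 7.49, 4.82 and 7.08 with siRNA-NC. The siRNA-MEG3 arrays lay together just below siRNA-NC array 2, and siRNA-NC arrays 1 and 3 lay further above. The only Igf1r spot lay in a darker area of siRNA-MEG3 arrays 1 and 3, but not of siRNA-MEG3 array 2. Its log2 fold change was -0.40 ± 0.28 (SE, n = 2 samples each; limma adjusted p = 0.537), and the gap between the siRNA-NC samples, 0.60, was larger. Without siRNA-NC array 2 it was -0.70.

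Igf2r, the clearance receptor, read 3.99, 3.75 and 3.99 with siRNA-MEG3, against 2.99, 2.25 and 2.97 with siRNA-NC. Every siRNA-MEG3 array lay above every siRNA-NC array. Its log2 fold change of 0.58 ± 0.24 (SE, n = 2 samples each) had an unadjusted p of 0.0723 and a limma adjusted p of 0.313, and without siRNA-NC array 2 it was 0.38. Igf2r was printed in 10 spots on each array, of which 9 or 10 were clean, and the SD between those spots was 0.03 to 0.10 on the log2 scale. The spots therefore measured each array more closely than the 2 siRNA-NC samples resembled each other. Of the 10 spots, 6 lay in darker areas of siRNA-MEG3 arrays 1 and 3 and gave 0.58, and the other 4 gave 0.57.

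**Figure D2:**
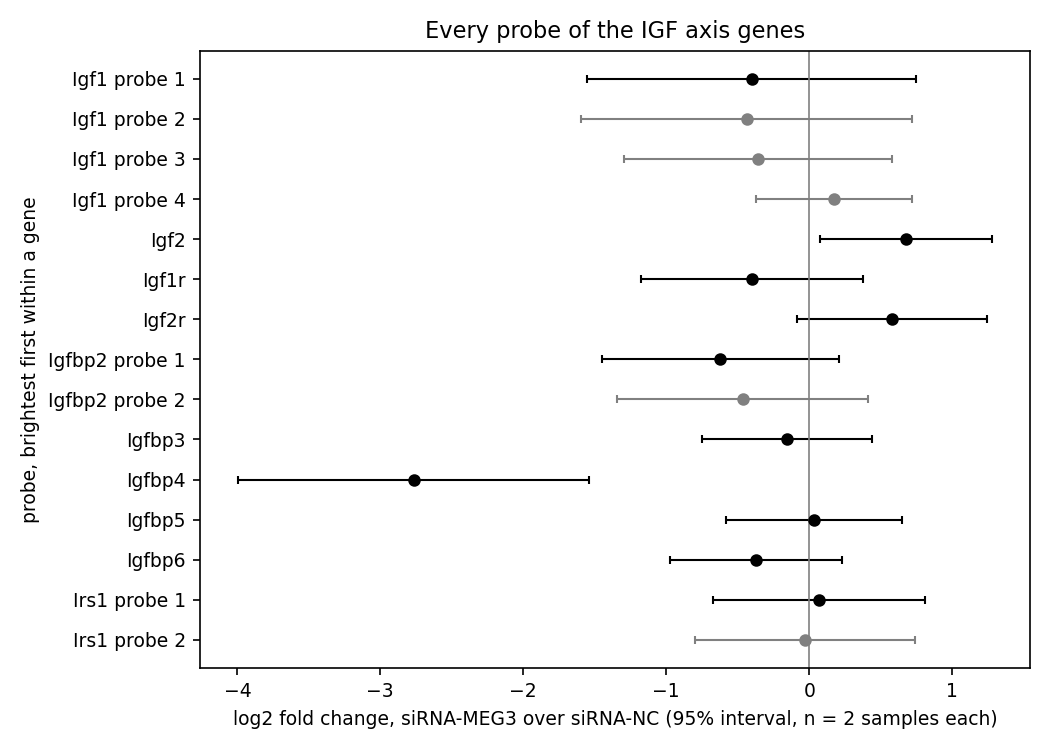
Log2 fold change of siRNA-MEG3 over siRNA-NC (horizontal axis, log2) with its 95% interval for each of the 15 probes of the IGF axis genes (n = 2 samples each); black marks the probe that stands for its gene and grey the others. The interval leaves out 0 for Igf2 (0.08 to 1.28) and Igfbp4 (-3.99 to -1.54), and neither passed after adjustment.

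Igfbp4 had the largest difference of the axis, measured on a signal that was mostly not above background with siRNA-MEG3. IGFBP4 binds IGFs and limits their action, and the protease PAPPA, which cleaves it, releases them. The relative signal was 0.0139, 0.0195 and 0.0104 with siRNA-MEG3, against 0.0750, 0.145 and 0.0747 with siRNA-NC. All siRNA-MEG3 arrays lay below all siRNA-NC arrays, and within siRNA-NC array 2 was the highest. The log2 fold change was -2.77 ± 0.45 (SE, n = 2 samples each), 6.80-fold lower, with a 95% interval of -3.99 to -1.54.

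It did not pass, with an unadjusted p of 0.00305 and a limma adjusted p of 0.0908. Its single probe stood well above background on 1 of the 3 arrays with siRNA-MEG3 (array 2) and on 3 of 3 with siRNA-NC. Its processed intensities were 18.1, 26.0 and 12.9 with siRNA-MEG3, against 96.7, 329.8 and 92.0 with siRNA-NC. The gene entered the test through siRNA-NC alone, and the size of the fold is uncertain. With each siRNA-MEG3 array set to at least the lowest signal well above background on it, Igfbp4 was 5.72-fold lower. That value is not a lower limit, as another background correction gave a smaller difference or the other sign. With normexp background correction Igfbp4 had a log2 fold change of 0.35, against a median of 0.50 over all genes. With the spots of a bright speck (siRNA-MEG3 array 2) removed before that correction, its log2 fold change was -1.20. Without siRNA-MEG3 array 2, it was -3.11. Igfbp4 passed in 6 of the 20 alternatives that gave it a value, with limma adjusted p between 2.08e-07 and 0.902 over all of them. In 2 of the 6, siRNA-MEG3 was a lone sample assumed to vary like siRNA-NC and every gene had the same SE, so these passes carry no spread of Igfbp4 itself. The passes with all 6 arrays or with 5 samples counted siRNA-NC arrays 1 and 3 as separate samples. That pair differed only within the noise of its spots. The passes with all 6 arrays also counted siRNA-MEG3 arrays 1 and 3 as separate samples, though they behaved as a repeat scan.

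Igfbp2, which binds both ligands, read 0.894, 0.924 and 0.886 with siRNA-MEG3, against 1.14, 1.76 and 1.07 with siRNA-NC. All siRNA-MEG3 arrays were lower, and siRNA-NC array 2 was the highest array. It had a log2 fold change of -0.62 ± 0.30 (SE, n = 2 samples each; limma adjusted p = 0.373), while the siRNA-NC samples differed by 0.67. The second Igfbp2 probe was also lower, at 0.367, 0.362 and 0.375 with siRNA-MEG3, against 0.385, 0.653 and 0.398 with siRNA-NC. Without siRNA-NC array 2 the difference of Igfbp2 was -0.29.

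Igfbp6, which prefers IGF2 over IGF1, read 7.57, 7.91 and 7.54 with siRNA-MEG3, against 8.63, 11.1 and 9.54 with siRNA-NC. The groups did not overlap, siRNA-MEG3 being lower, with a log2 fold change of -0.37 ± 0.22 (SE, n = 2 samples each; limma adjusted p = 0.456). Without siRNA-NC array 2 it was -0.23. Igfbp3, the main carrier of IGFs in blood, read 0.231, 0.227 and 0.229 with siRNA-MEG3, against 0.226, 0.281 and 0.238 with siRNA-NC. The siRNA-MEG3 arrays fell inside the range of siRNA-NC, with a log2 fold change of -0.16 ± 0.22 (SE, n = 2 samples each; limma adjusted p = 0.760).

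Igfbp5, a binding protein that myoblasts are known to secrete, read 40.3, 42.2 and 39.8 with siRNA-MEG3, against 44.9, 36.0 and 45.0 with siRNA-NC. All siRNA-MEG3 arrays lay between siRNA-NC array 2 and siRNA-NC arrays 1 and 3. With siRNA-MEG3 over siRNA-NC the log2 fold change was 0.03 ± 0.23 (SE, n = 2 samples each; limma adjusted p = 0.959), with a 95% interval of -0.59 to 0.65. In the authors' deposited table its log2 values were 16.0, 16.1 and 16.0 with siRNA-MEG3, against 15.7, 15.7 and 15.7 with siRNA-NC, and did not overlap. Igfbp2 and Igfbp5 are neighbouring protein-coding genes on chromosome 1, and neither passed.

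Irs1, the docking protein below the receptor, read 43.7, 42.7 and 43.2 with siRNA-MEG3, against 51.4, 34.0 and 48.1 with siRNA-NC. The groups overlapped, and siRNA-NC array 2 was again on the other side of siRNA-MEG3 from siRNA-NC arrays 1 and 3. This gave a log2 fold change of 0.07 ± 0.27 (SE, n = 2 samples each; limma adjusted p = 0.930). The second Irs1 probe read 0.288, 0.275 and 0.294 with siRNA-MEG3, against 0.250, 0.353 and 0.223 with siRNA-NC, also overlapping. In the authors' deposited table the brighter probe held 16.1 on each siRNA-MEG3 array, against 15.9, 15.6 and 15.8 on the siRNA-NC arrays.

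The spread that the members were set against lay mostly within siRNA-NC. The median gap between the samples of a group was 0.07 (log2) with siRNA-MEG3 and 0.48 with siRNA-NC over the 10 members, against 0.13 and 0.40 over all genes tested. For 6 of 10 members (60%) the gap within siRNA-NC was larger than the difference between the groups, namely Igf1, Igf1r, Igfbp2, Igfbp3, Igfbp5 and Irs1; this held for 50.1% of all genes tested. For 9 of 10 members the siRNA-MEG3 samples were closer to each other than the siRNA-NC samples, Igf2 being the exception, against 68.4% of all genes. Between 62.8 and 69.3% of spots were well above background on siRNA-MEG3 arrays and between 70.1 and 75.2% on siRNA-NC arrays, and no spot was saturated. Darker areas, looked for on siRNA-MEG3 arrays only, held 33.9% of the spots of arrays 1 and 3 and 5.95% of those of array 2.

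Among all genes, the pattern over the 4 samples most like that of Igf1, after each gene was centred on its own mean, was that of Arel1 (root mean square difference 0.027 on the log2 scale), Gcdh (0.027) and Impact (0.036). For Igfbp4 the closest were Msx3 (0.23), Nop53 (0.27) and H3c7 (0.28). The other 8 members ranged over 1 log2 unit or less between the samples and were not matched.

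Meg3 itself could not check the labels. None of its 3 probes stood well above background with siRNA-MEG3, and with siRNA-NC 1 of them did, on 1 array. The relative signal of the brightest was 0.00426, 0.00810 and 0.00442 with siRNA-MEG3, against 0.00898, 0.0112 and 0.00761 with siRNA-NC, and the groups overlapped.

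Among further partners outside the cell and at the receptor none passed as reported. Of 18 listed genes 11 were tested, with 0 higher, 0 lower, 2 at an unadjusted p under 0.05 and a median log2 fold change of 0.02. Igfbp7, a secreted binding protein with low affinity for IGFs, read 1.15, 1.27 and 1.19 with siRNA-MEG3, against 10.8, 5.98 and 10.6 with siRNA-NC. The groups were well apart, siRNA-MEG3 being lower, and the probe was well above background on all 6 arrays. Its log2 fold change was -2.71 ± 0.35 (SE, n = 2 samples each; limma adjusted p = 0.0620). Igfbp7 passed in 8 of 21 alternatives, among them quantile scaling (limma adjusted p = 0.0423) and the filter for detection on all arrays (limma adjusted p = 0.0400). The other passes included those with 6 arrays, with 5 samples and with a lone siRNA-MEG3 sample, which are limited as for Igfbp4. Over all alternatives its log2 fold change lay between -3.13 and -2.66, with limma adjusted p up to 0.610. Stc2, a secreted inhibitor of PAPPA, was at 1.05 (adjusted p = 0.158), Pappa at 0.37 (adjusted p = 0.581) and the insulin receptor Insr at 0.22 (adjusted p = 0.642). Igfbp1, Igfbpl1, Igf2bp1, Insrr, Stc1 and Grb10 were not well above background on any array, and H19 was not analysed here.

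In the PI3K-AKT-mTOR arm 27 of 28 listed genes were tested, and 0 were higher and 0 lower (3 at an unadjusted p under 0.05), with a median log2 fold change of 0.14. Foxo1, a transcription factor that AKT keeps out of the nucleus, read 4.66, 5.16 and 4.67 with siRNA-MEG3, against 2.96, 3.08 and 2.97 with siRNA-NC, with no overlap. Its log2 fold change was 0.70 ± 0.20 (SE, n = 2 samples each; limma adjusted p = 0.196), and that of Mlst8, a subunit of the mTOR complexes, was 0.50 (adjusted p = 0.307). Tsc2, which restrains mTOR, was at -0.90 (adjusted p = 0.190) and stood well above background on 2 of the 3 arrays with siRNA-MEG3.

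In the RAS-MAPK arm all 20 listed genes were tested, 1 of which fell and 0 rose, with a median of 0.18. The gene that fell was Spry4, an inhibitor of RAS-MAPK signalling, with relative signals of 0.0145, 0.0159 and 0.0188 with siRNA-MEG3, against 0.160, 0.101 and 0.117 with siRNA-NC. Its log2 fold change was -2.86 ± 0.25 (SE, n = 2 samples each; limma adjusted p = 0.0334), and like Igfbp4 its probe stood well above background on 1 of the 3 arrays with siRNA-MEG3 and entered the test through siRNA-NC alone. Set against the lowest signal well above background, as for Igfbp4, Spry4 was 6.99-fold lower, which again is not a lower limit. With normexp its log2 fold change was 0.22, against a median of 0.50 over all genes, and with the speck spots left out it was -1.33. The arm had a gene called lower in 14 of 21 alternatives and none in 7: normexp with and without the speck, the authors' deposited table, no filter, detection on all arrays, the 4-sample replicate block, and the fit without siRNA-NC array 2. Dusp6, a phosphatase of ERK, was at 1.1 (adjusted p = 0.180) and Egr1, an early target of the arm, at 0.81 (adjusted p = 0.194). The fit without siRNA-NC array 2 left siRNA-NC a lone sample, so it held no spread within siRNA-NC, and it called no gene of the whole table.

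**Figure D3:**
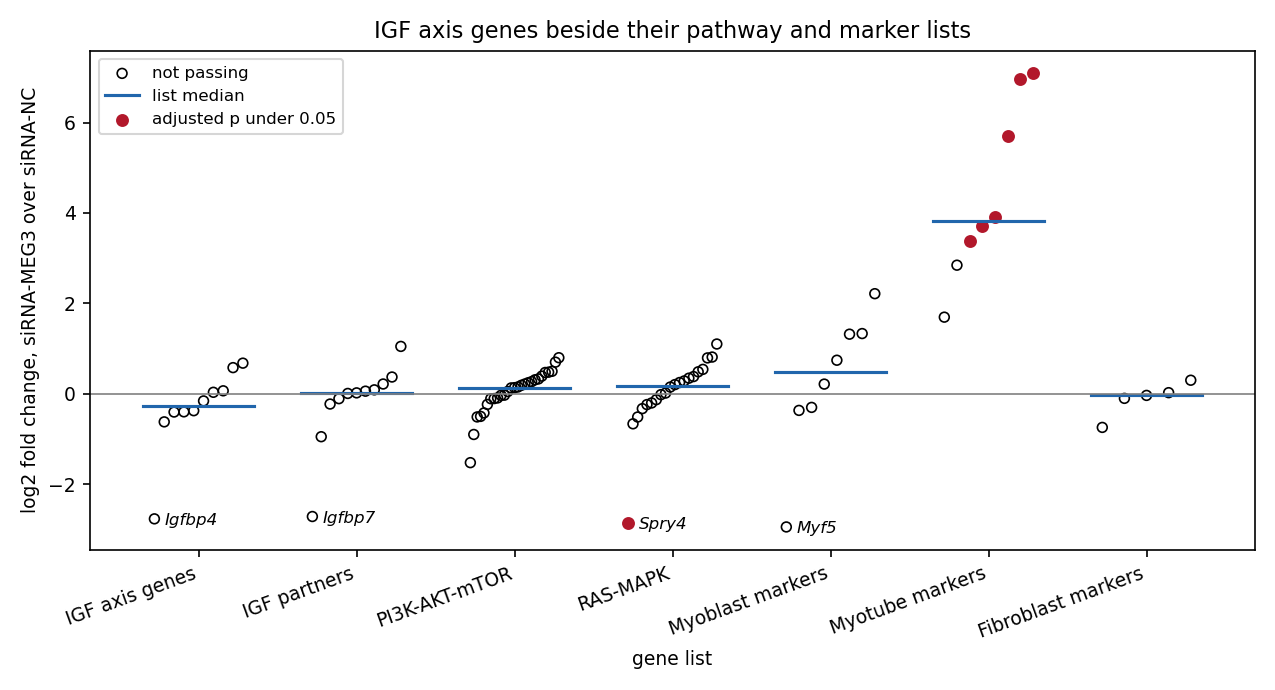
Log2 fold change of siRNA-MEG3 over siRNA-NC (vertical axis, log2) for each tested gene of the IGF axis, of the lists of its pathway and of cell type markers; red points have a limma adjusted p under 0.05, open circles do not, and blue bars are list medians. The IGF axis and its partners have no red point and medians of -0.27 and 0.02, and 6 of 8 myotube markers are red.

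Markers of myotubes moved with the groups in which the members were measured. Of 8 markers of terminal differentiation 6 rose and 0 fell, with a median log2 fold change of 3.82. Myog, the transcription factor myogenin, read 2.20, 2.25 and 2.23 with siRNA-MEG3, against 0.192, 0.236 and 0.194 with siRNA-NC (3.39; limma adjusted p = 0.0246). The calls did not hold in the fit without siRNA-NC array 2, which left siRNA-NC a lone sample and called no gene of the whole table. The difference of Myog there was 3.53. None of the 8 markers passed under normexp with the speck spots kept or without a filter either. Those settings also called no gene of the whole table. The summed relative signal of the 7 markers with a clean spot on every array was 20.5 to 20.6 with siRNA-MEG3 and 0.934 to 1.06 with siRNA-NC. Of the 8 myoblast markers 0 passed in limma (5 at an unadjusted p under 0.05), and they differed in direction: Myf5 had a log2 fold change of -2.95 (adjusted p = 0.0703), Myod1 of 2.21 (adjusted p = 0.120) and Cdh15 of 1.33 (adjusted p = 0.0988). Their sum was 69.2 to 70.3 with siRNA-MEG3 and 37.4 to 43.2 with siRNA-NC; all 8 were detected, 7 of them on all arrays. Such a sum weighs the brightest probes most and says nothing of a single marker. In bulk RNA, fewer cells of a type and less RNA per cell cannot be told apart. The part of the differentiation markers in the values of Igf2 and Igfbp4 was not tested.

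Markers of cell types other than muscle gave no call. Of 5 fibroblast markers 0 passed in limma (1 at an unadjusted p under 0.05), with sums of 136 to 164 with siRNA-MEG3 and 138 to 191 with siRNA-NC. Adipocyte markers summed to 0.418 to 0.456 with siRNA-MEG3 and 0.452 to 0.838 with siRNA-NC, and the 3 tested were all negative, with a median log2 fold change of -1.16 and 1 of them, Adipoq, at an unadjusted p under 0.05. Endothelial markers summed to 0.898 to 1.24 with siRNA-MEG3 and 0.889 to 0.946 with siRNA-NC, and immune markers to 0.321 to 0.418 with siRNA-MEG3 and 0.273 to 0.328 with siRNA-NC. None of the 3 adipocyte, 2 endothelial and 3 immune markers tested passed, and Lep of the adipocyte list was not well above background on any array.

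**Figure D4:**
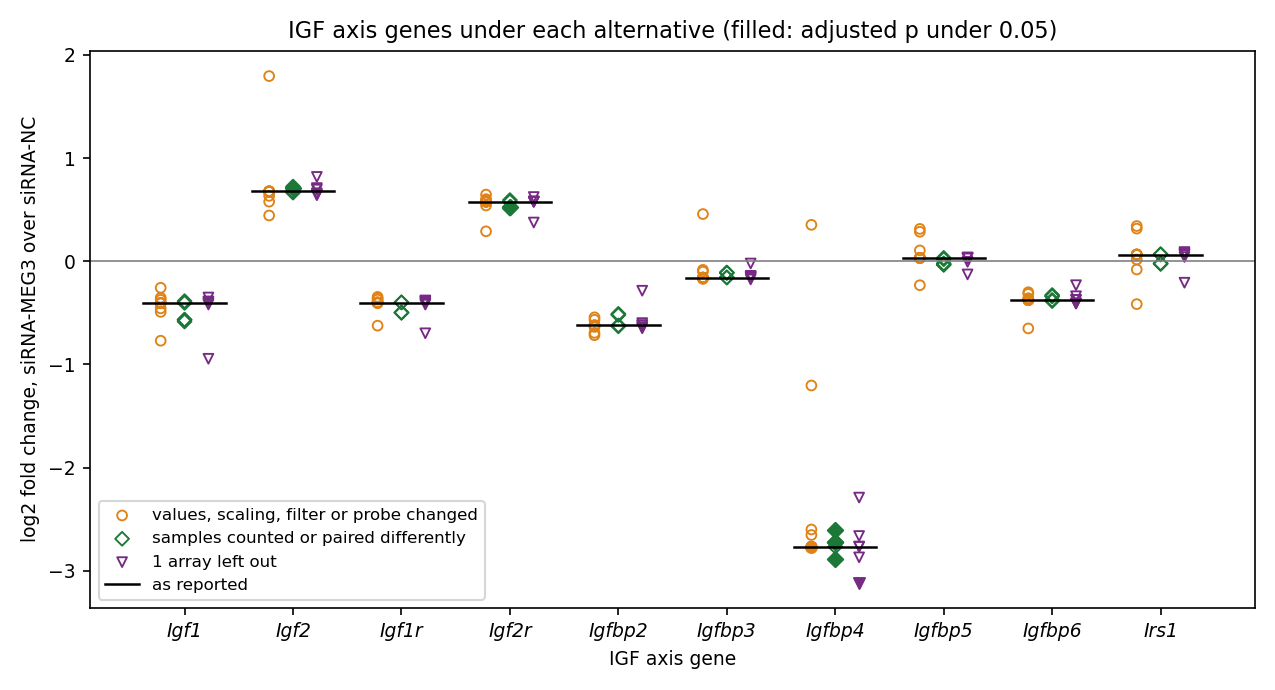
Log2 fold change of siRNA-MEG3 over siRNA-NC (vertical axis, log2) for each IGF axis gene under each alternative processing, grouped by what was changed; black bars are the values as reported and filled symbols have an adjusted p under 0.05. Igf2 lies between 0.44 and 1.80 and Igfbp4 between -3.11 and 0.35, and the Igfbp5 and Irs1 symbols lie on both sides of 0.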

How the data were processed

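Gene expression was measured on 6 single-colour Agilent arrays. The deposited scanner files were made, per the file headers, with Agilent Feature Extraction 11.0.1.1 and give, for each spot, a processed intensity that was already background-subtracted, with flags for spots well above background, saturated or outlying. The authors' deposited table holds log2 values for 30732 probes. Its columns had medians of 8.11 and the same maximum, 18.2, and correlated with the scanner values at 0.9991 to 0.9997. The differences of Igfbp5 (0.31) and Irs1 (0.34) in it were near those with quantile scaling (0.29 and 0.32). Which step made its arrays comparable was not tested. Per the labels, repeated probes were averaged and those reaching an intensity of 30 in all samples gave the normalization factor.

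Outlier spots were left out, spots of a probe were averaged, and log2 intensities were taken relative to the 75th percentile of each array. Probes had to be well above background on all arrays of either group and to have a clean spot in all 4 samples; a gene was represented by its brightest such probe. Accessions named 27234 of 39429 probes through RefSeq (GRCm38.p6); 22054 genes were tested, 15364 with a symbol. The spots of 230 probes printed 10 times were compared between arrays, and the siRNA-MEG3 arrays 1 and 2 gave a variance ratio of 1.64, so both siRNA-MEG3 samples may be technical replicates. The comparison used R 4.3.3 and limma 3.58.1 (2-sided moderated test, 2 residual degrees of freedom, prior 2.20), with Benjamini-Hochberg adjustment over all genes, after tests on simulated data. The number of arrays limits the precision.

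The members and lists were chosen with earlier results of these data known. All members were named with every probe, with up to 4 genes of the smallest p of each pathway list, some of which are not reported here; the marker genes and the untested genes were named after their values were seen. For members ranging over more than 1 log2 unit the 3 genes nearest in pattern were named. Scaling, background, filters, outlier spots, darker areas, the probe rule, the count of samples, pairing and leaving out each array were varied.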

Additional observations from a re-analysis of the deposited data

How the results depend on the processing

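Direction held in every alternative tried (21 each) for Igf1, Igf2, Igf1r, Igf2r, Igfbp2 and Igfbp6, and none of Igf1, Igf1r, Igfbp2, Igfbp3, Igfbp5, Igfbp6 and Irs1 passed in any. Leaving out 1 array of an averaged pair kept the same sample, and no fit left out both siRNA-NC arrays 1 and 3. For Igf1, siRNA-NC array 2 (relative signal 4.98) lay below every siRNA-MEG3 array (5.28 to 5.72). The direction of Igf1 therefore rests on siRNA-NC arrays 1 and 3. Igf2 and Igf2r passed only with the 6 arrays as 6 samples (0.71, adjusted p = 0.0123, and 0.53, adjusted p = 0.0468). That setting counts a repeat scan and a pair within the noise of its spots as separate samples. It called 3 of the 10 members, against 26.0% of all genes. Igfbp4 passed with dark patches left out (adjusted p = 0.0429), with 6 arrays (0.00481), with 5 samples (0.0268), with the 6-array replicate block (0.0115) and, with siRNA-MEG3 a lone sample and 1 SE shared by all genes, with siRNA-MEG3 as 1 sample (2.65e-06) and without siRNA-MEG3 replicate 2 (2.08e-07); with only probes well above background on all arrays it had no value. Signs turned under normexp for Igfbp3 (0.46), Igfbp4 (0.35), Igfbp5 (-0.23) and Irs1 (-0.42), and for Irs1 without the speck (-0.0794); with 6 arrays, with or without the replicate block, for Igfbp5 (-0.0330) and Irs1 (-0.0213); with 5 samples for Igfbp5 (-0.0203) and Irs1 (-0.0253); and, over the fits without 1 array each, in a range of -0.13 to 0.0376 for Igfbp5 and -0.21 to 0.0899 for Irs1, both lowest without siRNA-NC replicate 2. Without siRNA-MEG3 replicate 2 Igfbp5 was at -0.00502. Quantile scaling gave 0.29 for Igfbp5 and 0.32 for Irs1. Under normexp the median over all genes was 0.50, above the values of Igfbp3 and Igfbp4. The cause of the turns in sign was not tested.

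Genes called higher and lower numbered 210 and 93 as reported, 69.3% of them higher. They numbered 0 and 0 with normexp (782 at an unadjusted p under 0.05) and without a filter (4349), 111 higher with normexp without the speck, 124 and 17 in the authors' deposited table (87.9% higher), 321 and 196 without dark patches (1 member lower), 3114 and 2587 with 6 arrays (2 members higher, 1 lower), 966 and 922 with 5 samples (1 member lower), and 482 and 841 with siRNA-MEG3 as 1 sample (1 member lower). The replicate block gave 1422 and 1268 with 6 arrays (1 member lower) and 124 and 26 with 4 samples. Deviations of arrays with the same replicate number did not correlate between the groups (-0.03, -0.04 and -0.03). With 2 samples per group these are largely the same value repeated, so they do not settle whether the samples were paired. Over the fits that each left out 1 array, genes called higher ranged over 0 to 1201, those lower over 0 to 1794 and members lower over 0 to 1; without siRNA-MEG3 replicate 2 the counts were 1201 and 1794, without siRNA-NC replicate 2 0 and 0 (limma; 7417 at an unadjusted p under 0.05), and without siRNA-NC replicate 1 40 fell. In the fits without siRNA-MEG3 or siRNA-NC replicate 2 that group was a lone sample, so their counts carry no spread within it. Without siRNA-NC replicate 2 the log2 fold change of Myog was 3.53 and that of Myh3 6.24. Normexp moved the median of all genes to 0.50, against -0.02 as reported. Low intensity over background limits Igf2, Igfbp4 and Spry4.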
